A study of Homo sapiens with 9 samples.

Results

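The genes described here are 10 members of the antioxidant program governed by the transcription factor NRF2, with its glutathione and thioredoxin branches. They were listed by name, and are NFE2L2, KEAP1, NQO1, GCLC, GCLM, SLC7A11, TXNRD1, SRXN1, OSGIN1 and PIR. All 10 were among the 63187 genes of the count table, and all 10 were among the 16030 genes tested because they had at least 10 counts in at least 3 libraries. The 9 libraries are poly-A RNA-seq of BEAS-2B, a virus-transformed line of human bronchial epithelium, so that all libraries come from 1 cell line. Control cells received no condensate. PG/VG cells were kept for 24 h with condensed carrier aerosol, made from propylene glycol and vegetable glycerine alone, at 2% (v/v). EC cells were kept for 24 h at the same dilution with condensed aerosol of an e-cigarette liquid of Virginia tobacco flavor that contained 18 mg/mL nicotine, so that nicotine and flavor were added together and cannot be told apart. Each condition has 3 libraries, numbered 2, 3 and 4 in the labels, which give the same number as the batch.

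NRF2, the protein encoded by NFE2L2, is held at a low level in resting cells by KEAP1, an adaptor that brings it to the CUL3 ubiquitin ligase for degradation. Electrophiles and oxidants modify cysteines of KEAP1, NRF2 then accumulates, pairs with small MAF proteins and binds antioxidant response elements in its target genes. In airway epithelium this program is known for its response to tobacco smoke, and because it is switched mainly through protein stability the NFE2L2 transcript itself need not move. Its targets supply cysteine and glutathione (SLC7A11, GCLC, GCLM), reduce thioredoxin and peroxiredoxins (TXNRD1, SRXN1) and reduce quinones (NQO1).

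The letters of the response element were searched within 1000 bases before and 50 bases after the RefSeq start sites of the members, on both strands of GRCh38. Of the 10 members, 9 had an entry in the table of start sites, with 12 sites in all, and SLC7A11 had none. The core TGACNNNGC was found for 7 of these members, in 8 of their 12 windows, and in 33.7% of the 35116 windows of all genes, so a match to it is common. Its stricter form TGACTCAGC, searched after the matches had been seen, lay in 1.53% of all windows and in the windows of NQO1 and PIR. The sequences below are shown because NQO1, PIR and OSGIN1 are the members that rose with EC. GCLM is shown as an example of a gene that did not pass with a match close to the start. KEAP1 and TXNRD1 did not pass either and also had matches close to a start, from positions -31 and -8. A further match of PIR, from position -879, is not shown. They are written 5′ to 3′ along the gene's strand with the core in capitals, and a core that reads on the other strand appears as its reverse complement. A match describes letters in the genome and was not tested for binding.
NQO1, chr16:69726997-69727025, minus strand, core from position -455 before the start: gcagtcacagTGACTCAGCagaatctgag
PIR, chrX:15493289-15493317, minus strand, core on the other strand from position 27 after the start: gccgcgaagcGCTGAGTCAcggtgaggct
OSGIN1, chr16:83952673-83952701, plus strand, core from position -557 before the start: agacaatctgTGACTTGGCcccagttttc
GCLM, chr1:93909446-93909474, minus strand, core on the other strand from position -34 before the start: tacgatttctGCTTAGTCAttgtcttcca

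Each library held between 16168260 and 24917838 counts, and TMM factors from 0.971 to 1.045. Libraries of batch 4 stood apart from those of batches 2 and 3, which is described with its values further on. Values are TMM-normalized CPM, counts scaled to a fixed library total, and all tests are edgeR quasi-likelihood tests with the batch as a term and Benjamini-Hochberg adjustment over the 16030 genes, with a threshold of 0.05. The log2 fold change (LFC) is given with its standard error (SE). The study's methods call the libraries of a condition biological replicates of the line, and the labels add nothing on separate cultures. The p-values measure the spread that is left between these libraries once the batch is in the model. They do not measure the full spread between the libraries of a condition. As in all bulk RNA, fewer cells of a kind and less RNA per cell cannot be told apart. The line was checked by its markers. KRT7, KRT8 and KRT18, keratins of simple epithelium, were abundant at 860, 1060 and 546 CPM in the control, whereas EPCAM and CDH1, defining epithelial adhesion genes, were low at 1.20 and 0.684 CPM, and KRT5, the keratin of basal cells, had 0 to 1 count in every library. Of the 7 epithelial and line markers tested, KRT7, KRT8 and KRT18 fell with EC vs. control and none rose, where 13.5% of all genes passed. In PG/VG vs. control VIM, also on this list, fell, where 4.54% of all genes passed. In EC vs. PG/VG KRT7 fell, where 0.855% of all genes passed. No other marker of the list passed in these comparisons, and the part of the markers in the results was not tested. Of 9 markers of other cell types, 8 had at most 12 counts in any library, and the remaining one was the collagen gene COL1A1 at 75.6 CPM in the control.

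EC vs. control asks which of these genes the complete e-cigarette condensate altered. NQO1, OSGIN1 and PIR rose, and none of the 10 fell. Of all genes tested, 13.5% passed in this comparison and 8.07% passed and were higher. The other 7 members did not pass after adjustment. The median LFC of the 10 members was 0.18, beside 0.0078 over all genes tested.

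**Figure D1:**
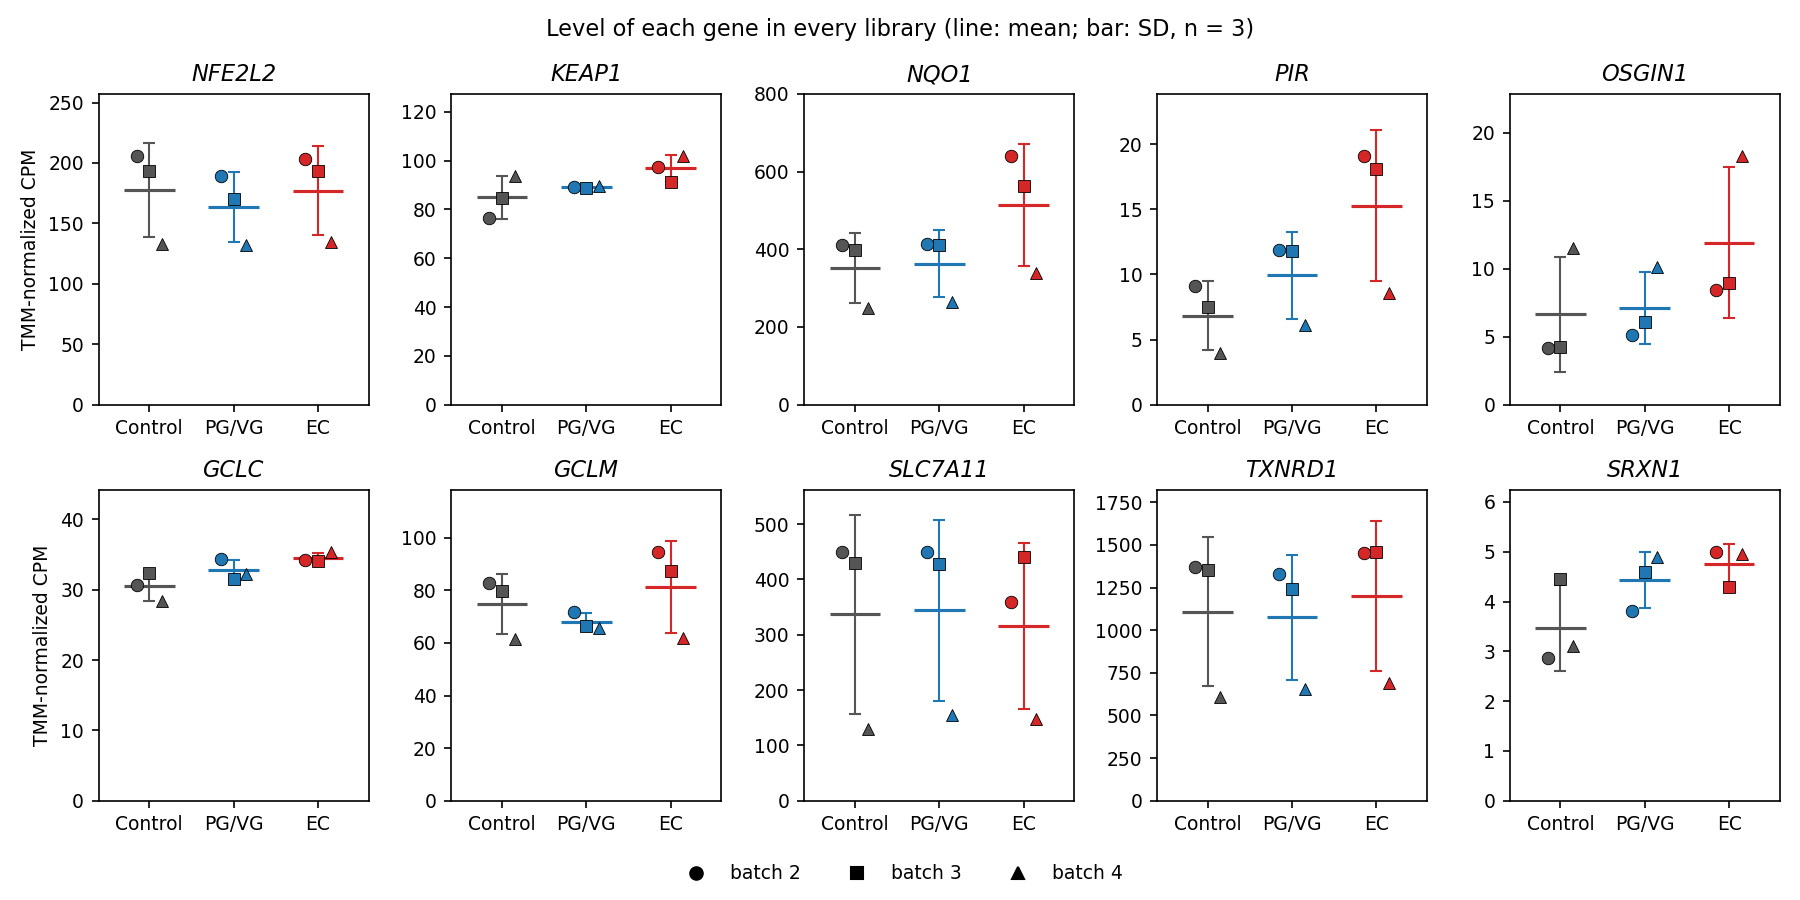
TMM-normalized CPM of each member in each of the 9 libraries (vertical axis, linear from 0, a separate scale per gene) by condition (horizontal axis). Points are libraries with the batch as the symbol, the line is the mean and the bar the SD of 3 libraries; NQO1 reached 641 CPM in EC of batch 2, and the batch 4 triangles of SLC7A11 and TXNRD1 lie far below the other symbols.

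NFE2L2 encodes NRF2 itself. Its level in the control was 206, 193 and 133 CPM in batches 2, 3 and 4. With EC it was 203, 193 and 135 CPM, and with PG/VG it was 189, 170 and 132 CPM. The pooled conditions overlapped, and all batch 4 values lay below those of the other batches. Within batches PG/VG was below the control in 3 of 3, at 0.914, 0.88 and 0.994-fold, and EC above PG/VG in 3 of 3, by 1.08, 1.14 and 1.02-fold. The LFC of EC vs. control was -0.0019 (95% interval -0.14 to 0.14), with an adjusted p of 0.989. PG/VG vs. control gave an LFC of -0.11 (SE 0.0668, adjusted p = 0.388) and EC vs. PG/VG one of 0.11 (SE 0.0665, adjusted p = 0.545). The gene lies on the minus strand of chromosome 2 (GRCh38, 177218667 to 177392756), and 38.4% of its exon length is shared with other annotated genes, and reads that overlapped more than 1 gene were not counted.

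KEAP1, the repressor of NRF2, had 76.4, 84.8 and 93.9 CPM in the control libraries, 89.0, 88.9 and 89.8 CPM in PG/VG and 97.5, 91.1 and 102 CPM in EC. The EC libraries were above the control of the same batch in 3 of 3 batches, but by 1.28-fold in batch 2 and only 1.07-fold and 1.08-fold in batches 3 and 4, and the groups overlapped. The LFC was 0.19 (SE 0.0747), with an unadjusted p of 0.0193 and an adjusted p of 0.1. With library size as the only scaling the adjusted p was 0.0252, so that this value depends on the scaling. KEAP1 lies on the minus strand of chromosome 19 (10486125 to 10503558), and none of its exon length is shared with other genes.

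NQO1, a quinone reductase and a classical NRF2 target, was the most abundant of the 3 genes that rose. The control libraries had 410, 398 and 248 CPM in batches 2, 3 and 4. The EC libraries had 641, 564 and 338 CPM. PG/VG libraries had 415, 410 and 265 CPM, close to the controls of the same batch. EC exceeded both other conditions in each batch, although the EC value of batch 4 was below the controls of batches 2 and 3, so that the pooled groups overlapped. The fold over the control was 1.56, 1.42 and 1.36 in the 3 batches, and the fitted LFC was 0.53 (SE 0.0682, adjusted p = 2.13e-05), an increase of 44.8%. EC vs. PG/VG gave an LFC of 0.48 (SE 0.068, adjusted p = 0.000698), whereas PG/VG vs. control gave 0.053 (95% interval -0.088 to 0.19, adjusted p = 0.721). NQO1 lies on the minus strand of chromosome 16 (69706996 to 69726668), and 19.4% of its exon length is shared with a long noncoding gene on the other strand.

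PIR encodes pirin, an iron-binding nuclear protein. Its level was low, at 70 to 481 counts per library. In the control it was 9.08, 7.49 and 3.94 CPM in batches 2, 3 and 4, in PG/VG 11.9, 11.8 and 6.09 CPM, and in EC 19.1, 18.1 and 8.58 CPM. In every batch the order was control, PG/VG and EC from low to high, and across batches the lowest EC value lay below the highest control value. The fold of EC over the control was 2.10, 2.42 and 2.18, with a fitted LFC of 1.16 (SE 0.121, adjusted p = 2.06e-06). PIR lies on the minus strand of chromosome X (15384799 to 15493564) with no exon shared with another gene.

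OSGIN1, an oxidative stress-induced regulator of cell growth, had 4.13, 4.27 and 11.5 CPM in the control, 5.12, 6.07 and 10.1 CPM in PG/VG and 8.45, 8.94 and 18.3 CPM in EC. EC was the highest condition in each batch, by 2.05, 2.09 and 1.59-fold over the control, and the pooled groups overlapped because all batch 4 libraries were high. The LFC of EC vs. control was 0.88 (SE 0.139, adjusted p = 0.000199). PG/VG vs. control gave 0.15 (95% interval -0.16 to 0.45, adjusted p = 0.623). OSGIN1 lies on the plus strand of chromosome 16 (83931311 to 83966332), and 8.22% of its exon length is shared with MLYCD, counted from 65 to 369 reads per library.

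The genes of glutathione supply did not pass. GCLC, the catalytic subunit of glutamate-cysteine ligase, which limits the rate of glutathione synthesis, had 30.6, 32.4 and 28.4 CPM in the control and 34.2, 34.1 and 35.4 CPM in EC. These groups did not overlap, yet the step was small against the model's error, with an LFC of 0.18 (SE 0.0853), an unadjusted p of 0.0451 and an adjusted p of 0.172. PG/VG had 34.4, 31.5 and 32.3 CPM, a range that overlapped with both, with an LFC over the control of 0.10 (adjusted p = 0.538). The gene lies on the minus strand of chromosome 6 (53497341 to 53616970).

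GCLM is the modifier subunit of the same enzyme. It had 82.8, 79.8 and 61.6 CPM in the control, 71.8, 66.4 and 65.7 CPM in PG/VG and 94.7, 87.5 and 61.7 CPM in EC. The batches differed. In batches 2 and 3 EC was 1.32-fold above PG/VG in each, and in batch 4 it was 0.94-fold. Over all batches EC vs. control gave an LFC of 0.12 (SE 0.0857, adjusted p = 0.418), which was 0.041 without EC replicate 2, 0.070 without EC replicate 3 and 0.20 without EC replicate 4. EC vs. PG/VG gave one of 0.24 (SE 0.0853, adjusted p = 0.208). With batches 2 and 3 alone, a choice made after seeing the data, EC vs. PG/VG passed with an LFC of 0.40 and an adjusted p of 0.0446. Whether the condensate effect on GCLM differed between batches was not tested. GCLM lies on the minus strand of chromosome 1 (93885199 to 93909456).

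SLC7A11 encodes the light chain of the cystine-glutamate exchanger, which imports cystine for glutathione synthesis. Its control values were 450, 430 and 130 CPM, its PG/VG values 450, 427 and 155 CPM and its EC values 359, 440 and 148 CPM. Control and PG/VG were nearly equal in batches 2 and 3, and EC was low in batch 2 only, at 0.798-fold of its control. EC vs. control had an LFC of -0.037 (95% interval -0.21 to 0.13, adjusted p = 0.817). Its sign turned without EC replicate 2, with an LFC of 0.077, without Control replicate 2, with 0.049, and with library size as the only scaling, with 0.022. SLC7A11 lies on the minus strand of chromosome 4 (138164097 to 138242349), with 8.97% of its exon length shared with its antisense gene.

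TXNRD1, the cytosolic thioredoxin reductase, was the most abundant member in CPM. It had 1370, 1350 and 608 CPM in the control, 1330, 1240 and 653 CPM in PG/VG and 1450, 1460 and 693 CPM in EC. EC exceeded the control of its batch in 3 of 3 batches, by 1.06, 1.09 and 1.14-fold. The LFC of 0.13 (SE 0.0667, adjusted p = 0.209) did not pass, and neither did EC vs. PG/VG with 0.15 (SE 0.0667, adjusted p = 0.347). TXNRD1 lies on the plus strand of chromosome 12 (104215779 to 104350307).

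SRXN1, sulfiredoxin, which repairs over-oxidized peroxiredoxins, was measured poorly. Of its exon length, 90.7% is shared with a protein-coding read-through gene on the same strand, and reads overlapping more than 1 gene were left out, which leaves 0.235 kb for counting. It had 45 to 126 counts per library, and the read-through gene had 0 to 3. SRXN1 stood at 2.86, 4.46 and 3.10 CPM in the control and at 5.00, 4.30 and 4.96 CPM in EC, where batch 3 went against the other two. PG/VG had 3.81, 4.60 and 4.89 CPM. The LFC of EC vs. control was 0.46 (SE 0.187, adjusted p = 0.106), with the 95% interval from 0.077 to 0.85. Without Control replicate 3 it was 0.69 with an adjusted p of 0.0496, and without EC replicate 2 it was 0.30 with an adjusted p of 0.406. SRXN1 lies on the minus strand of chromosome 20 (646615 to 653200).

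**Figure D2:**
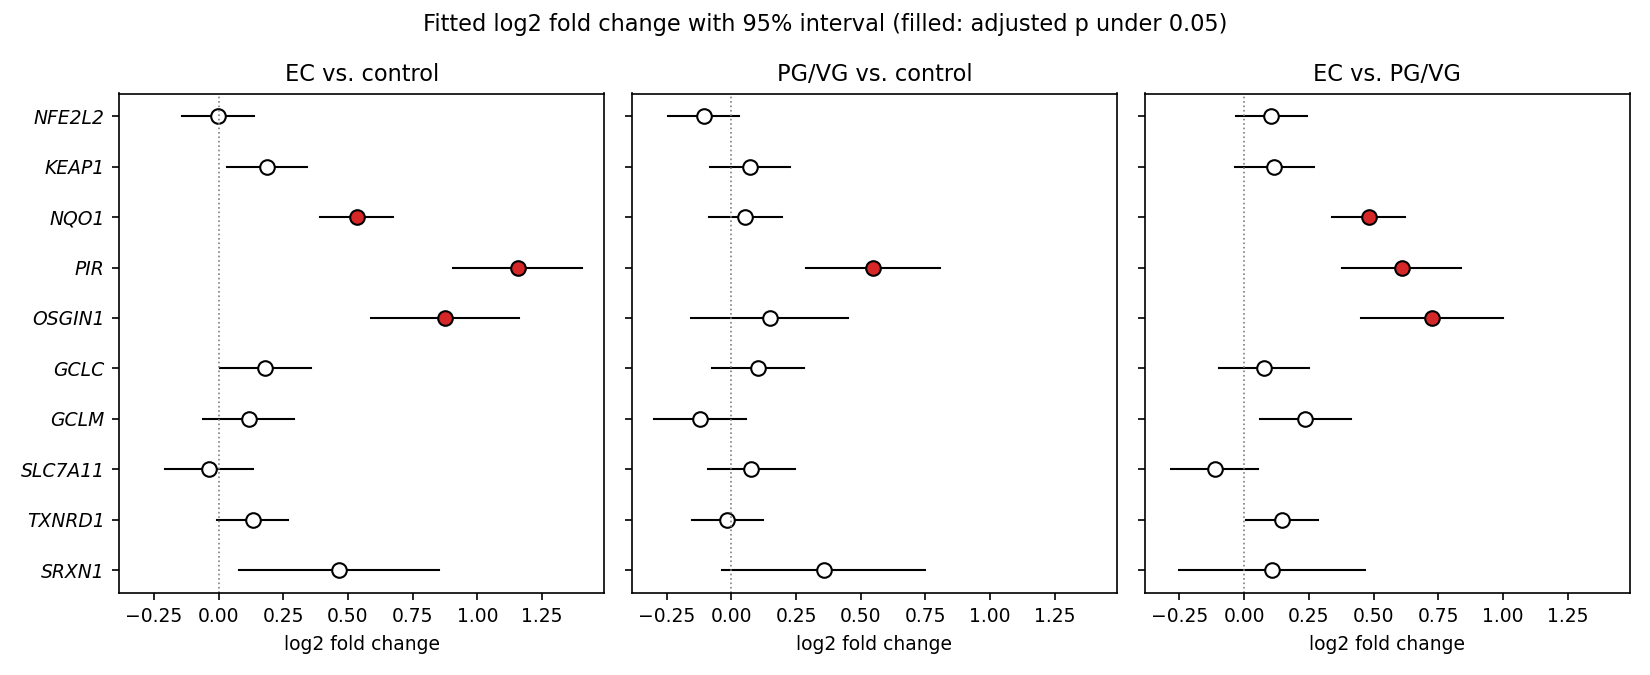
Fitted log2 fold change (horizontal axis) of each member (vertical axis) in the 3 comparisons, with its 95% interval as a line. Filled points had an adjusted p under 0.05; these are NQO1, PIR and OSGIN1 in EC vs. control and in EC vs. PG/VG, and PIR in PG/VG vs. control.

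PG/VG vs. control asks what the carrier condensate did without nicotine and flavor. PIR was the member that passed, of 10, and it rose. Over all genes, 4.54% passed and 2.63% passed and were higher. PIR exceeded its control by 1.31, 1.58 and 1.55-fold in batches 2, 3 and 4, and the fitted LFC was 0.55 (SE 0.125, adjusted p = 0.0129). This call was lost without Control replicate 3, with an LFC of 0.47 and an adjusted p of 0.129, and without PG/VG replicate 4, with 0.50 and 0.0646. The median LFC of the 10 members was 0.075, beside 0.013 over all genes tested. SRXN1 had the next largest LFC, 0.36 (SE 0.19, adjusted p = 0.302). The collagen marker COL1A1 rose too, from 75.6 to 89.8 CPM (LFC 0.26, adjusted p = 0.0394), and its part in the result was not tested, while the other 8 markers of other cell types stayed at or under 12 counts.

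EC vs. PG/VG compares the condensates of the liquids directly. The study gives a carrier ratio for the PG/VG liquid only. A difference in carrier can therefore not be told apart from nicotine and flavor. The same 3 genes as in EC vs. control, NQO1, OSGIN1 and PIR, were higher in EC, and none of the 10 was lower. Of all genes, 0.855% passed here and 0.555% passed and were higher. The LFC was 0.73 for OSGIN1 (SE 0.133, adjusted p = 0.00685), with EC above PG/VG by 1.65, 1.47 and 1.81-fold in the 3 batches. PIR had an LFC of 0.61 (SE 0.111, adjusted p = 0.00686), with 1.61, 1.53 and 1.41-fold. For PIR the EC libraries therefore exceeded PG/VG by an amount close to that by which PG/VG exceeded the control, and both steps passed. For NQO1 and OSGIN1 the step from PG/VG to EC passed and that from the control to PG/VG did not. The calls of OSGIN1 and PIR were lost without some libraries, although the LFC stayed near its value. Without PG/VG replicate 2 OSGIN1 had an LFC of 0.76 (adjusted p = 0.0507) and PIR one of 0.54 (adjusted p = 0.17). Without PG/VG replicate 4 OSGIN1 had 0.59 (adjusted p = 0.135), and without EC replicate 2 PIR had 0.61 (adjusted p = 0.055). NQO1 passed in all 9 fits that left out 1 library, with an adjusted p of at most 0.0166. The comparisons of the condensates with the control share the control libraries, and EC vs. PG/VG shares libraries with both.

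**Figure D3:**
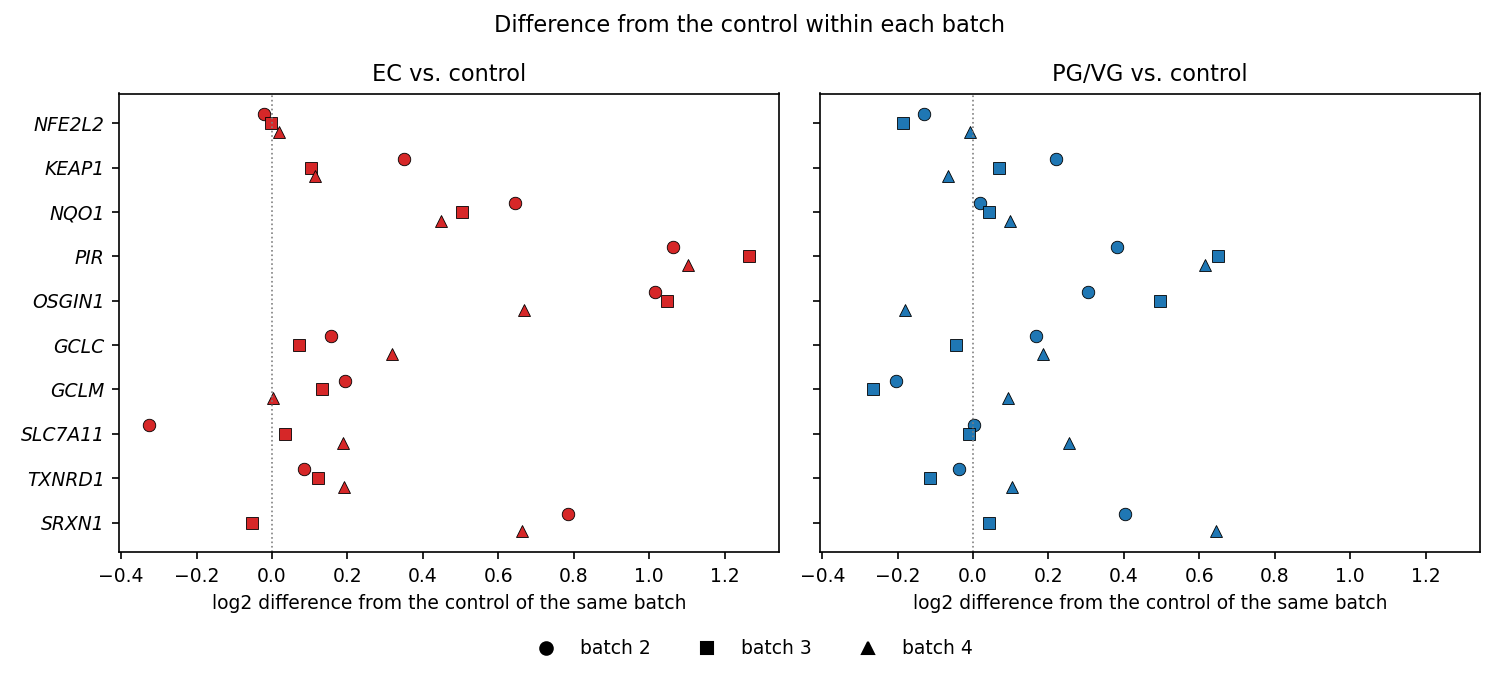
Log2 difference of EC (left) and PG/VG (right) from the control library of the same batch (horizontal axis) for each member (vertical axis), with the batch as the symbol. PIR, NQO1 and OSGIN1 lie to the right of 0 in all 3 batches for EC, and for PG/VG all symbols of NQO1 lie close to 0.

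More members passed between batches than with either condensate. In batch 4 vs. the mean of batches 2 and 3, with the condition in the model, 6 members were lower, NFE2L2, NQO1, GCLM, SLC7A11, TXNRD1 and PIR, and OSGIN1 was higher. Over all genes 40.6% passed in this contrast, 20.1% higher and 20.5% lower. SLC7A11 differed most, with mean levels of 420, 432 and 144 CPM in batches 2, 3 and 4 and an LFC of -1.56 (SE 0.0762, adjusted p = 4.75e-13). TXNRD1 fell by 1.07 on the log2 scale (SE 0.0607, adjusted p = 2.3e-12), and PIR by 1.05 (SE 0.108, adjusted p = 4.81e-08). NQO1 had an LFC of -0.72, NFE2L2 of -0.53 and GCLM of -0.34. OSGIN1 went the other way, with 5.90, 6.43 and 13.3 CPM and an LFC of 1.11 (SE 0.113, adjusted p = 4.02e-08). KEAP1, GCLC and SRXN1 did not pass, with adjusted p-values from 0.166 to 0.824. The rise of NQO1, PIR and OSGIN1 in EC was seen in batch 4 as in the other batches, and these 3 also passed with batches 2 and 3 alone in EC vs. control. What the batch stands for beyond its number is not given in the labels.

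**Figure D4:**
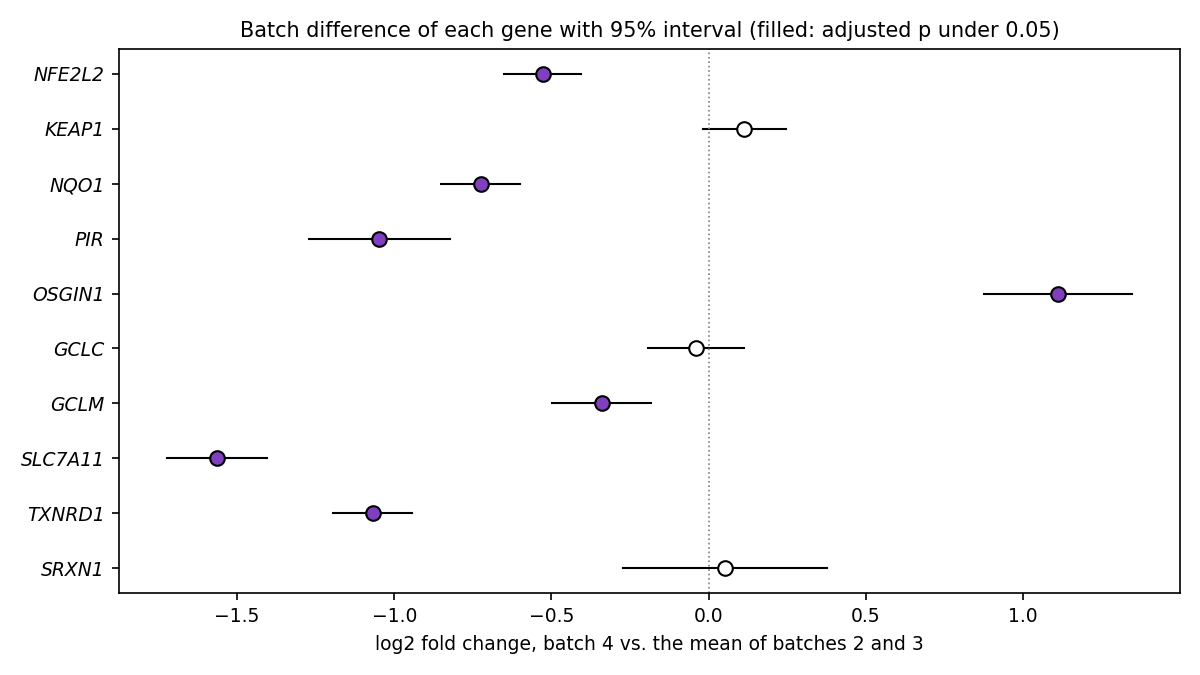
Log2 fold change of batch 4 against the mean of batches 2 and 3 (horizontal axis) for each member (vertical axis), with the 95% interval as a line. Filled points had an adjusted p under 0.05; SLC7A11 lies lowest at -1.56 and OSGIN1 is the filled point on the right at 1.11.

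Levels can be set side by side between genes only per length. The length used here joins all annotated exons of a gene, 9.22 kb for NFE2L2, and is not that of the transcripts expressed. The order below therefore depends in part on the annotation. In the control, per kb of exon length outside other genes, the mean level was 165 CPM per kb for TXNRD1 and 147 for NQO1, whose ranges of 90.5 to 203 and 103 to 171 overlapped. Both stood above SLC7A11 at 38.3, KEAP1 at 23.8, NFE2L2 at 19.2 and GCLM at 13.8 CPM per kb, and in this order each of these overlapped with the next. GCLC followed with 3.92 CPM per kb (3.64 to 4.17), below GCLM without overlap. PIR had 2.72 CPM per kb (1.57 to 3.62) and OSGIN1 1.30 (0.809 to 2.25), and these overlapped. The order followed the batch in part, since in the batch 4 control NQO1 (103) was above TXNRD1 (90.5), KEAP1 (26.3) above SLC7A11 (14.8) and OSGIN1 (2.25) above PIR (1.57). By this measure the 2 genes with the largest LFC were therefore those with the lowest levels per length, and NQO1 rose from one of the highest. In EC, NQO1 reached 215 CPM per kb, beside 179 for TXNRD1, again with overlapping ranges. SRXN1 is left out of this order because so little of its length could be counted.

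The partners of these genes were described from lists written from general knowledge. These lists were chosen with earlier results of these data known, so the counts below give no independent support. Of 16 NRF2 regulators and partners tested, 2 rose with EC vs. control and none fell, a share near the 13.5% of all genes that passed in this comparison, with a list median LFC of -0.024. They were SESN1 (LFC 0.55, SE 0.0981, adjusted p = 0.000571), a sestrin, and SQSTM1 (LFC 0.50, SE 0.0912, adjusted p = 0.00139), the autophagy receptor p62 that binds KEAP1. CUL3, the ligase scaffold, had an LFC of -0.15 (adjusted p = 0.209), MAFG, a small MAF partner, 0.039 (adjusted p = 0.77), and BACH1, a repressor that competes for the same elements, -0.084 (adjusted p = 0.557). None of the 16 passed in PG/VG vs. control or in EC vs. PG/VG, where edgeR gave list medians of 0.075 and -0.026. The shares of all genes that passed were 4.54% and 0.855% there.

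Of 13 further genes of glutathione synthesis, recycling and transport, 2 rose and 1 fell with EC, where 13.5% of all genes passed, with a list median of 0.037. GSR, glutathione reductase, which returns oxidized glutathione to its reduced form, rose from 109 to 134 CPM (LFC 0.30, SE 0.0751, adjusted p = 0.00945), and ANPEP, a surface peptidase, had an LFC of 0.37 (adjusted p = 0.0426) and was higher in 2 of 3 batches. CHAC1, which breaks glutathione down, fell by 0.31 on the log2 scale (SE 0.0801, adjusted p = 0.0121). GSS, which completes glutathione synthesis, had an LFC of 0.08 (adjusted p = 0.502), and SLC3A2, the heavy chain that pairs with SLC7A11, one of 0.18 (adjusted p = 0.108). None of the 13 passed in PG/VG vs. control or in EC vs. PG/VG, where 4.54% and 0.855% of all genes passed.

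Enzymes that use glutathione were the next list. Of 26 glutathione peroxidases, transferases and glutaredoxins tested, 5 rose with EC and none fell, where 13.5% of all genes passed and 8.07% were higher, with a list median of 0.099. The largest LFC belonged to GSTM4 at 0.65 (SE 0.126, adjusted p = 0.00128) and GPX3 at 0.53 (SE 0.0769, adjusted p = 8.19e-05), a conjugating enzyme and a peroxidase, and both also rose with PG/VG, by an LFC of 0.45 and 0.33. MGST2 had an LFC of 0.47 with EC. MGST1, a membrane-bound transferase, had mean levels of 89.1, 86.5 and 119 CPM in control, PG/VG and EC, and it rose vs. control (LFC 0.42, adjusted p = 0.000984) and vs. PG/VG (LFC 0.46, adjusted p = 0.00328). GLRX2, a mitochondrial glutaredoxin, fell with PG/VG (LFC -0.28, adjusted p = 0.0467).

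Of 21 thioredoxins, peroxiredoxins and related reductases, 1 rose and 1 fell in EC vs. control, where 13.5% of all genes passed. In PG/VG vs. control, where 4.54% passed, 1 also rose and 1 fell. None passed in EC vs. PG/VG, where 0.855% of all genes did. TXN, thioredoxin and the substrate of TXNRD1, fell with PG/VG, from 241 ± 16.3 to 196 ± 1.29 CPM (SD, n = 3), with an LFC of -0.30 (SE 0.0786, edgeR adjusted p = 0.0307), and in EC it was 228 ± 29.9 CPM with an LFC of -0.085 (adjusted p = 0.528). PRDX1, a peroxiredoxin that sulfiredoxin repairs, had an LFC of 0.063 with EC (adjusted p = 0.684). SESN3 rose in both comparisons from very low counts, with 0.159 CPM in the control, 0.732 in PG/VG and 1.15 in EC. MSRB3, a methionine sulfoxide reductase, fell with EC (LFC -0.35, adjusted p = 0.0025).

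NADPH supplies the electrons for both reductase systems. The list of 10 enzymes of NADPH-generating pathways held 3 that rose with EC and none that fell, where 8.07% of all genes were higher. Its median LFC was 0.18. Not every enzyme of the list makes NADPH itself, and TKT, 1 of the 3, does not. IDH1, cytosolic isocitrate dehydrogenase, rose by an LFC of 0.53 (SE 0.0779, adjusted p = 9.26e-05). TKT and PGD, enzymes of the pentose phosphate pathway, had 0.28 and 0.22. None of the 10 passed in PG/VG vs. control or in EC vs. PG/VG, where 4.54% and 0.855% of all genes passed.

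Of 24 other NRF2 target genes tested, 12 rose and 1 fell with EC, where 13.5% of all genes passed and 8.07% were higher, with a median LFC of 0.45 beside 0.0078 over all genes. ALDH3A1, an aldehyde dehydrogenase, had an LFC of 1.71 (SE 0.293, adjusted p = 0.000423) from a control level of 0.905 CPM. The paper groups ALDH3A1 with CYP1A1, CYP1B1 and TIPARP as genes of xenobiotic metabolism. Which regulator moved ALDH3A1 was not tested. AKR1B10 and AKR1C3, aldo-keto reductases, had 1.32 and 1.31 at low levels of 1.09 and 0.593 CPM in the control, and TRIM16L had 1.17. TNFRSF21, a death receptor, fell (LFC -0.30, adjusted p = 0.00666). AKR1C3, AKR1B10, TRIM16L and GSTM4 have close copies in the genome, and reads that mapped to more than 1 place were not counted, so their levels are uncertain. In PG/VG vs. control 3 of the 24 rose, TRIM16L, EPHX1 and SLC48A1, beside 2.63% of all genes. In EC vs. PG/VG 5 rose and none fell, beside 0.555% of all genes that were higher. The largest of these 5 were ALDH3A1 with an LFC of 1.09, FTL with 0.61, TRIM16 with 0.60 and TRIM16L with 0.58, which was higher in 2 of 3 batches. FTL, the ferritin light chain that stores iron, had mean levels of 1380 CPM in the control, 1380 in PG/VG and 2100 in EC.

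**Figure D5:**
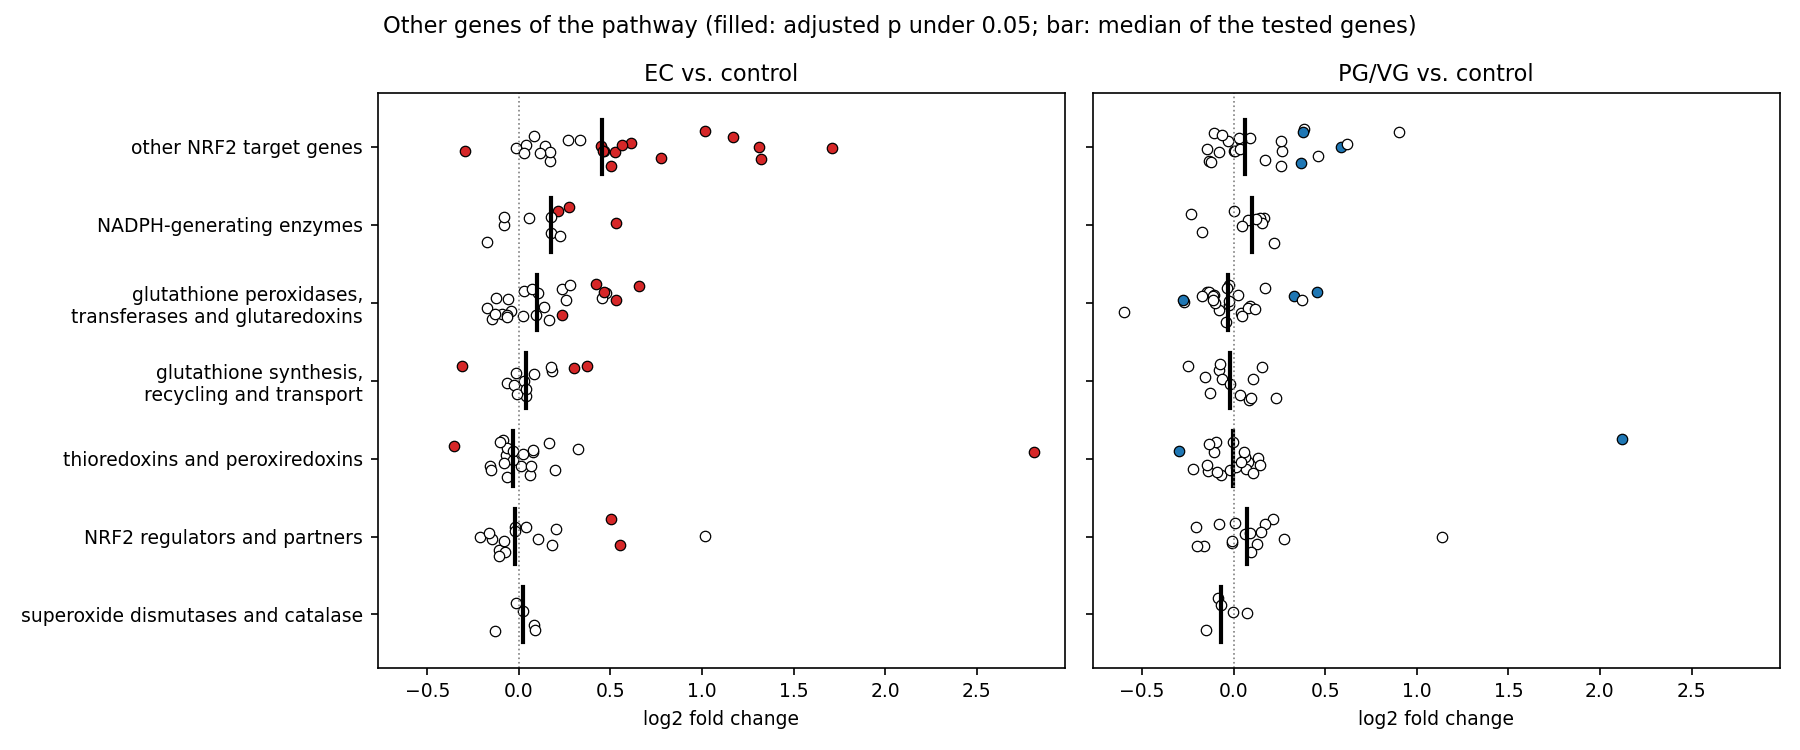
Log2 fold change (horizontal axis) of every tested gene of 7 lists (vertical axis, spread only for visibility) in EC vs. control (left) and PG/VG vs. control (right). Filled points had an adjusted p under 0.05 and bars are list medians; the list of other NRF2 target genes has its median at 0.45 with EC and at 0.064 with PG/VG.

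NQO1 is also a target of the aryl hydrocarbon receptor, and so its values are set beside genes of that receptor. Of 6 genes on this list, 3 rose with EC and none fell, where 8.07% of all genes were higher, and NFE2L2 itself was 1 of the 6. CYP1A1 and CYP1B1, the cytochrome P450 enzymes that mark receptor activity, had an LFC of 2.65 (SE 0.238, adjusted p = 2.06e-06) and 1.95 (SE 0.096, adjusted p = 3.17e-09), and TIPARP one of 1.12 (SE 0.12, adjusted p = 8.63e-05). In EC vs. PG/VG the same 3 passed, with 2.47, 1.56 and 1.11, where 0.555% of all genes were higher. In PG/VG vs. control CYP1B1 rose (LFC 0.39, adjusted p = 0.0236) and AHR fell (LFC -0.32, adjusted p = 0.0347), while NQO1 had 0.053. In that comparison 4.54% of all genes passed. The letters TNGCGTG, the core of the receptor's response element, lay at the start of NQO1 and within the windows of 3 of the 9 members. They lay in 17.5% of the windows of all genes, a share of windows and not of genes, and some members had more than 1 window. The part of the receptor in the change of NQO1 was not tested.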

How the data were processed

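RNA of BEAS-2B cells was sequenced by the authors as poly-A libraries, 3 for each of control, PG/VG and EC. Per the authors, fastp did the trimming and STAR the alignment to GRCh38, and exon reads were assigned to genes with featureCounts (Subread 2.0.4), leaving out reads with several map positions or several genes. The strand setting is not given in the sources used here. The deposited table holds raw counts for 63187 genes, 16168260 to 24917838 per library, and no normalization. These depths give small counting error for most members and larger error for SRXN1, OSGIN1 and PIR.

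The filter asked for 10 or more counts in 3 or more libraries, and the 16030 genes left went into edgeR 4.0.16 (R 4.3.3) with TMM scaling and one robust quasi-likelihood fit of all 9 libraries with terms for condition and batch. Adjustment was by Benjamini-Hochberg at 0.05 over all genes tested. The SE was the absolute LFC over the root of the F statistic, and 95% intervals used the fit's degrees of freedom. CPM values are TMM-scaled, and group values are means ± SD. The pairing comes from the labels, which give the replicate number as the batch, and the study's methods remove it. Deviations from the condition means correlated at 0.334 to 0.707 between libraries of the same number (9 pairs) and at -0.539 to 0.426 between different numbers. Pairs of numbers 2 and 3 correlated about as highly as same-number pairs of these, so the values separate batch 4 and do not separate 2 from 3. No pair of libraries of 1 condition was alike within sampling noise (chi-square per gene 3.88 to 53.9).

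Annotation overlaps and coordinates came from GENCODE on GRCh38, in which 62666 gene IDs were found, and start sites from RefSeq. The members, gene lists and tests were chosen with earlier results of these data known, and the lists give no independent support. Every member is named, with up to 4 genes per list and comparison of largest absolute LFC among those passing, 8 genes that share a complex or reaction with a member (a further one under this rule is not reported here), and the 5 genes most like a member. The calls of EC vs. control were checked on simulated counts for edgeR with and without the batch, DESeq2, and ComBat-Seq with DESeq2. The other comparisons and steps were not checked in this way. Alternatives were RLE and library size scaling, other filters, DESeq2 1.42.0, ComBat-Seq (sva 3.50.0) with DESeq2, the 2 groups alone, no replicate block, a threshold of 0.01, and leaving out each library. Batches 2 and 3 alone were added after seeing the data.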

Additional observations from a re-analysis of the deposited data

How the results depend on the processing

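NQO1, OSGIN1 and PIR passed in EC vs. control under every alternative except the fit without the replicate block. Without the block, in which the batch spread enters the error, 0 members passed in each of the 3 comparisons. Over all genes it called 16 in EC vs. control, 1 for PG/VG and 1 between the condensates, against 2157, 727 and 137 with the block. In PG/VG vs. control, 0 members passed at an adjusted p under 0.01 and 0 with batches 2 and 3 only, and leaving out each library gave 0 to 1. In EC vs. PG/VG leaving out each library gave 1 to 3, with 1, NQO1, without PG/VG replicate 2. With batches 2 and 3 only, OSGIN1 was lost there (LFC 0.64, adjusted p = 0.0853) and GCLM gained. KEAP1 passed in EC vs. control with library size only.

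Signs turned only for members that did not pass. With library size only the LFC was 0.058 for NFE2L2 and 0.022 for SLC7A11 in EC vs. control, 0.010 for TXNRD1 in PG/VG vs. control and 0.0032 for GCLC between batches. NFE2L2 in EC vs. control had 0.0060 with no filter and 0.0004 with at least 10 counts in every library. SLC7A11 in PG/VG vs. control had -0.020 with batches 2 and 3 only. Leaving out each library moved the LFC of EC vs. control from -0.031 to 0.0045 for NFE2L2 and from -0.13 to 0.077 for SLC7A11. In PG/VG vs. control it ran from -0.0073 to 0.13 for KEAP1, -0.0020 to 0.097 for NQO1, -0.016 to 0.17 for SLC7A11 and -0.072 to 0.029 for TXNRD1. In EC vs. PG/VG it ran from -0.19 to 0.011 for SLC7A11 and -0.049 to 0.28 for SRXN1, and between batches from -0.091 to 0.013 for GCLC and -0.047 to 0.16 for SRXN1. The cause was not tested.

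Over all genes, ComBat-Seq with DESeq2 called 3099, 1735 and 658 genes in the 3 comparisons, the 2 groups alone 1179 in PG/VG vs. control and 318 in EC vs. PG/VG, and no filter 309 in the latter. Batches 2 and 3 only gave 1216, 324 and 80. Leaving out each library gave 1162 (without Control replicate 3) to 2172 in the first, 192 (without PG/VG replicate 2) to 1084 (without EC replicate 2) in the second and 32 (without PG/VG replicate 2) to 208 (without Control replicate 4) in the third. Counts more than 1.5 times lower came without Control replicates 2 and 3 and EC replicates 3 and 4 in the first, without any 1 of the control libraries, PG/VG replicate 2 or PG/VG replicate 4 in the second, and without PG/VG replicates 2 and 4 and EC replicate 2 in the third. With library size only 1863 of 2349 called genes were higher in EC vs. control, against 1294 of 2157 with TMM. Low counts limit SRXN1, OSGIN1 and PIR.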

Other observations

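SLC7A11 is also a target of ATF4, the transcription factor of the amino acid response, and 11 further genes of that response were tested. With EC vs. control, 1 rose and 2 fell, where 13.5% of all genes passed. The median LFC was -0.13 in edgeR, beside 0.0078 over all genes tested. SLC7A5, an amino acid exchanger that pairs with SLC3A2, rose (LFC 0.43, SE 0.0781, adjusted p = 0.000802), PSAT1, an enzyme of serine synthesis, fell by 0.45 on the log2 scale (SE 0.0643, adjusted p = 6.37e-05), and TRIB3, a pseudokinase, fell by 0.39 (adjusted p = 0.0145), although it was higher than its control in 1 of 3 batches. With PG/VG, DDIT3 and CEBPB, both stress-responsive transcription factors, fell, with an LFC of -0.35 and -0.31, and none rose. In that comparison 4.54% of all genes passed. In EC vs. PG/VG SLC7A5 alone of the 11 passed, and it rose (LFC 0.33, adjusted p = 0.0439), where 0.855% of all genes passed.

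Of 5 superoxide dismutases, catalase and related genes tested, none passed in any of the 3 comparisons. The shares of all genes that passed were 13.5% in EC vs. control, 4.54% in PG/VG vs. control and 0.855% in EC vs. PG/VG. SOD1, the cytosolic superoxide dismutase, had 185 CPM in the control and 171 in EC, SOD2, the mitochondrial enzyme, had 141 and 149, and CAT, catalase, had 36.5 and 36.4.

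The genes with the pattern most like that of PIR over the 9 libraries, by Pearson's r of log2 CPM after centring each batch, were SEC61A1 (0.992), TRIM22 (0.991), QPCT (0.99), TMEM255A (0.989) and PREP (0.988), among 10870 genes with a mean of at least 5 CPM. Those most like NQO1 were RIPK4 (0.998), SNX7 (0.994), TSC22D1 (0.992), L3HYPDH (0.99) and ARMCX3 (0.987). PIR and NQO1 had an r of 0.9 with each other, and OSGIN1 had 0.91 with PIR and 0.927 with NQO1. All of these rose with EC, which in part fixes their likeness. NFE2L2 had 0.025 with PIR and 0.362 with NQO1. Other members that did not pass had, with PIR and NQO1 in turn, 0.744 and 0.768 (KEAP1), 0.763 and 0.652 (GCLC) and 0.713 and 0.829 (TXNRD1). GCLM had 0.379 and 0.656, and SLC7A11 had -0.125 and -0.407. SRXN1 lay under the limit of mean CPM. The 9 points share their libraries, and the r values are a description.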
